A study of Drosophila melanogaster with 4 samples.

Results

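Peaks of GFP-tagged Ultraspiracle (USP) that lay crowded together on the chromosome arms of Drosophila melanogaster embryos were examined as groups, here called dense regions. Peaks on the 6 major arms were placed by their midpoints, and neighbours with midpoints under 5 kb apart were linked. A dense region is a linked region of 5 or more peaks. There were 33 dense regions with 225 peaks, out of 1397 peaks on the arms and 1540 in the whole list. They held 16.1% of the arm peaks and 18.8% of the 898 kb that arm peaks covered. Another 5 linked regions of this size, with 95 peaks on 2L, 3L and 3R, were left out by their position. The members were therefore chosen by where the peaks lie, and their crowding is a description of that choice. The peak score was not used to choose them.

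The study mapped where USP sits in the embryo by chromatin immunoprecipitation and sequencing (ChIP-seq). All libraries came from strain USP-GFP, of genotype PBac{y[+]-attP-3B}VK00033, and carried the USP genomic coding region as a transgene, per the labels. The embryos were 0 to 12 h old and fixed with 1.8% formaldehyde; the collection protocol itself refers to y; bw cn sp flies rather than to USP-GFP. The 2 ChIP libraries were made with a rabbit polyclonal antibody to GFP, and the 2 Input libraries hold genomic DNA that was not immunoprecipitated. The tagged protein thus came from a transgene, and the whole embryo was used, so a peak does not say in which cells the protein was bound. The deposited result is 1 peak list without values per library, so no value here has a replicate error, sequencing depth is unknown, and no test across peaks or regions was run. Intervals given for shares are exact (Clopper-Pearson) 95% intervals that cover counting error only; peaks of 1 region are not independent of each other.

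USP is the fly relative of the vertebrate retinoid X receptor. It pairs with the ecdysone receptor EcR, and the pair binds DNA at short repeated half-sites and switches genes on or off according to the steroid hormone 20-hydroxyecdysone. Hormone pulses govern moulting and metamorphosis, and a pulse in the embryo accompanies later embryonic morphogenesis. Some large ecdysone-responsive genes are known to carry many receptor sites spread over their introns and flanks. In a ChIP-seq peak list, such a locus can appear as 1 broad peak or as a string of separate intervals. No genes are assigned to the regions here, because positions in the list are of FlyBase release 5 and the gene table at hand is of release 6. Sequence of the regions was likewise not used here.

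The 33 dense regions were mostly short strings of 5 to 7 peaks. There were 11 regions of 5 peaks, 8 of 6 and 7 of 7, and the remaining 7 regions held 8, 9, 9, 10, 10, 11 and 16 peaks. They spanned 2.48 to 30.1 kb from the first base of the first peak to the last base of the last, with a median of 8.87 kb and an interquartile range of 6.39 to 10.5 kb. Together they spanned 309.8 kb, of which peaks covered 168.8 kb, or 54.5%. The covered share of a single region ran from 20.5% to 87.8%, with a median of 50.4%. Regions with more peaks were longer (Spearman's rho 0.79 over 33 regions), which in part follows from how regions are built.

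**Figure D1:**
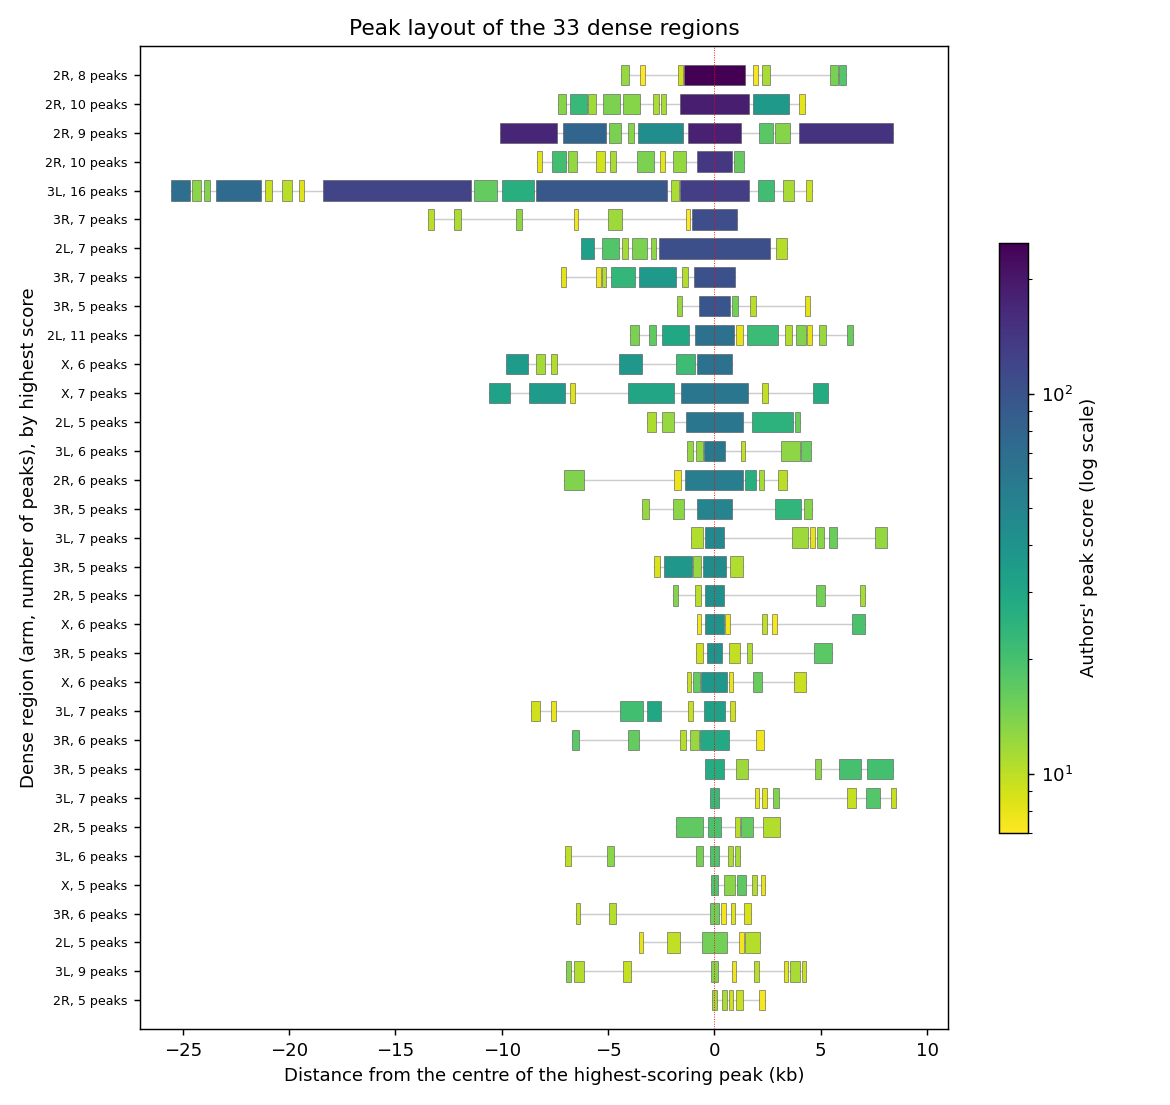
Peak layout of the 33 dense regions. Each row is a region, labelled by arm and number of peaks and ordered by its highest score; boxes are peaks drawn to scale against the distance in kb from the centre of the highest-scoring peak, coloured by the authors' peak score on a log scale. The 3L region of 16 peaks is the longest, at 30.1 kb, and the 2R region of 5 peaks at the bottom is the shortest, at 2.48 kb.

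Dense regions differed in how many peaks of high score they held. As a guide to what is ordinary, 25.1% of all arm peaks had a score of 19.48 or more, their upper quartile. Of the 225 member peaks, 60 (26.7%, interval 21.0 to 33.0%) reached this value, a share near that background. The median score of the members was 12.86, and that of the other 1172 arm peaks was also 12.86. By region, 6 had no peak at or above the upper quartile, 12 had exactly 1, 11 had 2 or 3, and 4 had 4 or more. Regions with more peaks have more chances of holding such peaks, and these counts were not tested against an even spread. In the 12 regions with exactly 1, the highest score ran from 19.55 to 247.54 with a median of 41.9, while the second-highest score lay between 12.88 and 19.45. Over all 33 regions the highest score had a median of 46.47 and the second-highest a median of 18.19. The lowest score of a region was between 7.02 and 13.44. It varied little with the highest score (Spearman's rho 0.19 over 33 regions, given as a description).

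**Figure D2:**
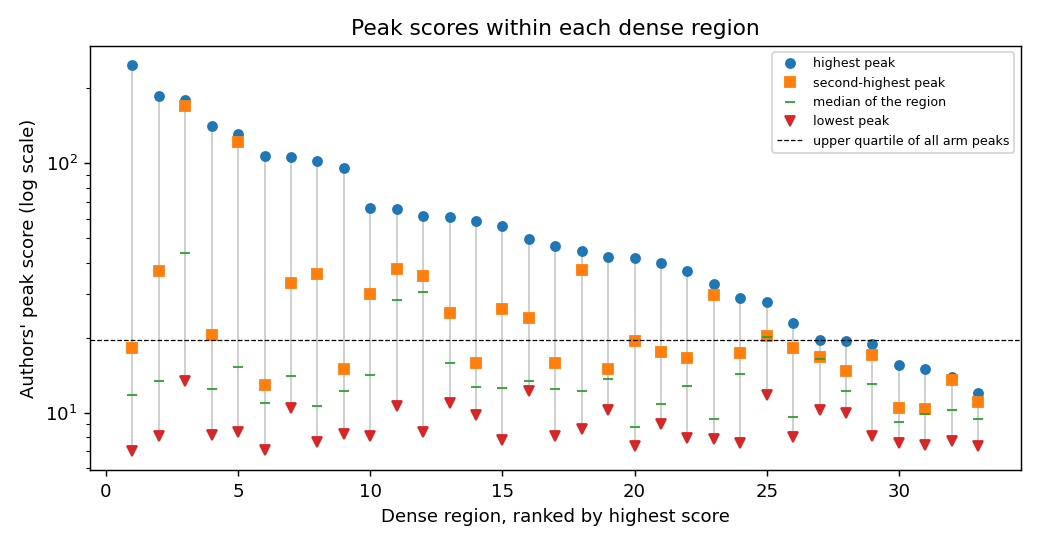
Scores within each dense region. Regions are ranked along the horizontal axis by their highest score, and the vertical axis is the authors' peak score on a log scale; symbols mark the highest, second-highest, median and lowest peak, and the dashed line is the upper quartile of all arm peaks, 19.48. The highest score falls from 247.54 to 12.02 across the regions while the lowest score stays between 7.02 and 13.44. The lowest score of any arm peak is 6.08.

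Very high scores were found in 8 of the dense regions. On the arms, 2.22% of peaks had a score of 100 or more. Among the member peaks there were 11 such peaks (4.89%, interval 2.47 to 8.58%), which are 35.5% of the 31 on the arms. They lay in 8 of the 33 regions (24.2%), against 3.29% of all 820 linked regions of any size, single peaks included. A region with many peaks has more chances of holding a high one, so these shares are not on a like footing. Of the regions with 2 to 4 peaks, 7 of 210 (3.33%) reached 100, and of the single peaks 10 of 572 (1.75%). The 5 regions of 5 or more peaks left out by position also held such scores, in 3 of their 95 peaks (3.16%). These lay in the 3R region from 17429837 (highest score 167.22) and the 3L region from 17987637 (110.15). Whether the members differed from the others in this was not tested. Of the 20 highest-scoring arm peaks, 7 were members, while members made up 16.1% of all arm peaks. These 7 were not all separate cases, since those of 178.85, 169.29 and 148.87 lay in the same 2R region, from 6097836. The count of 7 was not tested against the share of 16.1%.

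The highest-scoring member stood alone in its region. It lay on 2R at 5434321 to 5437151, was 2831 bp wide and scored 247.54. It was the fourth of the 8 peaks between 5431330 and 5441902. In order along the arm, the scores were 12.32, 7.02, 9.05, 247.54, 7.49, 11.18, 14.5 and 18.1. No other peak of the region reached the upper quartile of the arms, and the next peak outside the region was 99.5 kb away. The gap of 229 between highest and second-highest score was the largest of the 33 regions, and this peak made up 56.8% of the bases its region's peaks covered.

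A region on 2R from 6097836 to 6116316 was built in the opposite way, from several high and wide peaks. Its 9 peaks scored, in order, 169.29, 79.02, 14.29, 13.44, 43.49, 178.85, 17.73, 13.44 and 148.87. It was the only dense region with 3 peaks of score 100 or more, and these were its first, sixth and last peaks, 2693, 2533 and 4435 bp wide. Peaks covered 85.9% of its 18.5 kb. Its median score of 43.49 was the highest of any dense region. After joining of peaks 500 bp or less apart, it formed 2 blocks.

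The region with the most peaks lay on 3L from 5601602 to 5631722. It held 16 peaks over 30.1 kb, the longest span, and peaks covered 85.1% of it. High and ordinary scores were interspersed along it: 7 of the 16 peaks reached the upper quartile, at 70.09, 72.87, 121.46, 26.06, 94.2, 130.77 and 20.87, and the other 9 were between 8.38 and 16.53. The highest-scoring peak, 130.77, was 3215 bp wide, while the peak of score 121.46 was 6960 bp wide, the widest member of any dense region. A peak of 6168 bp scored 94.2. Unlike the 2R peak of 247.54, the highest peak here made up only 12.5% of the covered bases.

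The other regions with a score of 100 or more each held 1 such peak. On 2R from 15152294 to 15163872, the eighth of 10 peaks scored 186.09 and was 3275 bp wide. Its neighbour downstream scored 36.89, and the remaining 8 scored 8.06 to 22.46. A peak outside this region, at 15141506 to 15145482 with a score of 143.16, lay 6.81 kb before it. Also on 2R, from 9879880 to 9889644, the ninth of 10 peaks scored 141.5 with a width of 1668 bp, and the second-highest score was 20.56. In both regions the high peak lay near the end with the higher coordinates, and each had 1 peak before it that reached the arm upper quartile, at 22.46 and 20.56.

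On 3R, the high peak lay at the very end in 2 regions. From 5698571 to 5713107, the last of 7 peaks scored 107.33 and the other 6 scored 7.05 to 12.88, so that all 6 were below the arm upper quartile and close to or below the arm median of 12.86. This region was sparse: 28.2% of its 14.5 kb was covered and 6 separate blocks remained after joining peaks 500 bp or less apart. The second 3R region, from 9639315 to 9647515, was more compact, with 71.1% of 8.20 kb covered. Its last peak scored 102.63, and 2 peaks in its middle scored 23.9 and 36.11.

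A 2L region from 6082972 to 6092660 adjoined one of the highest-scoring peaks of the list. Its 7 peaks formed 1 block with gaps of at most 368 bp, covering 86.4% of 9.69 kb. The sixth peak, 5210 bp wide with a score of 106.09, made up 62.2% of the covered bases. The first peak of the region scored 33.06. Only 131 bp before it ended a peak of 9457 bp with a score of 348.57, at 6073384 to 6082840. That peak is not a member, because its midpoint is 5162 bp from the next one. Of the 33 dense regions, this was the only one with an outside peak less than 5 kb from its edge. Some regions left out by position had one too. It lay 160 bp from the 3L region from 17987637 and 2901 bp from the 2L region from 5290923.

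The second-largest region by number of peaks reached no such score. It lay on 2L from 19154774 to 19165253, with 11 peaks, of which the fourth scored 66.22 and was 1870 bp wide. The third and sixth scored 29.89 and 21.82, and the other 8 scored 8.03 to 16.72. Another dense region of 5 peaks, from 19135854 to 19143051, ended 11.7 kb before it and had a highest score of 61.01. No other 2 dense regions were this close, although regions of 15 and 44 peaks left out by position on 2L lay 11.2 kb apart. Among dense regions, the next closest were on X, 45.1 kb apart, and the median distance between neighbouring dense regions of an arm was 2135 kb.

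At the low end, 8 regions had no score of 25 or more. They held 48 peaks, and their highest scores ran from 12.02 to 22.81. The lowest of them, on 2R from 16723126 to 16725609, was also the shortest dense region, with 5 peaks of 201 to 291 bp that scored 12.02, 10.99, 9.1, 9.46 and 7.36 in order. The second shortest, on X from 3636066 to 3638610, had 5 peaks that scored 18.88, 13.01, 16.98, 10.6 and 8.03 and formed 1 block. On 3L from 10842882 to 10854184, 9 peaks over 11.3 kb all scored between 7.69 and 13.86, and they covered 24.6% of the span. The least covered region, on 3R from 5168766 to 5177017 (20.5%), had 6 peaks with a highest score of 15.53. The difference between highest and second-highest score in these 8 regions was 0.35 to 5.11. In the 8 regions with a score of 100 or more it was 9.31 to 229.

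Regions with a higher top score were also longer and more fully covered. The 8 regions below 25 had a median span of 6.96 kb and a median covered share of 38.1%. In the 10 regions with a highest score of 25 to 50 these were 8.45 kb and 40.0%, in the 7 regions of 50 to 100 they were 10.5 kb and 53.3%, and in the 8 regions of 100 or more 11.1 kb and 73.9%. Spearman's rho of the highest score was 0.54 with the number of peaks, 0.58 with the span and 0.48 with the covered share over the 33 regions. These are descriptions without a p, and the measures share peak widths, since wider peaks had higher scores. The ranges overlapped: a region of 5 peaks on 3R from 27528168 to 27532384 had the highest covered share of all, 87.8% of 4.22 kb, with highest scores of only 44.41 and 37.47. A 2R region of 5 peaks from 12695909 to 12704963 had nearly the same highest score, 42.24, but peaks covered 22.8% of its 9.06 kb.

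The remaining 18 dense regions had 5 to 7 peaks, spans of 4.91 to 15.9 kb and highest scores of 15.03 to 96.08. On 2L they were the region from 19135854 described above and one from 2161864 to 2167580 (5 peaks, highest score 15.03). On 2R they lay from 7517067 to 7527519 (6 peaks, highest score 56.03) and from 9447329 to 9452237 (5 peaks, highest score 19.55). On 3L there were 5, from 634082 to 643261 (highest score 46.47), 2391733 to 2399936 (19.37), 2578679 to 2584511 (58.67), 7981209 to 7990796 (32.83) and 10669051 to 10677813 (22.81). On 3R there were also 5, from 629074 to 637096 (highest score 49.87), 815243 to 824262 (28.82), 13532373 to 13541240 (27.76), 14896931 to 14903324 (39.94) and 17653622 to 17659893 (96.08). On X there were 4, from 2189536 to 2197443 (highest score 41.53), 3580315 to 3590946 (65.4), 12644954 to 12650551 (37.02) and 18560061 to 18575983 (61.76).

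Among these, the 3R region from 17653622 and the X region from 18560061 show different layouts, a pair chosen after their values were seen. In the 3R region the second of 5 peaks scored 96.08 and the rest scored 8.19 to 15. The X region had 5 of its 7 peaks at or above the upper quartile, at 31.66, 35.47, 30.51, 61.76 and 27.97, and the other 2 at 8.38 and 9.69. The widest of them was 3126 bp.

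Within a region, peaks next to the highest one had ordinary scores. The 59 peaks directly beside the highest-scoring peak had a median score of 10.99 (interquartile range 9.25 to 14.8), and 9 of them (15.3%) reached the arm upper quartile, against 25.1% of all arm peaks. At the second place away, the median of 49 peaks was 11.4. At the next 2 places it was 12.79 (34 peaks) and 13.98 (20 peaks), and 30 peaks farther out had a median of 12.27. These medians pool both sides and all regions that reach a place, and they did not step down with distance from the highest peak. They do not give the course within a single region. In the 2L region from 19135854, scores fell outward on both sides, 12.28 then 10.91 and 24.99 then 15.8. After the highest peak of the 2R region from 5431330 they rose, from 7.49 to 18.1. The second-highest peak was a direct neighbour of the highest in 12 of the 33 regions. Direct neighbours were 59 of the 192 peaks other than the highest, and the count of 12 was not tested against that share. Since the highest peak was removed before these medians were taken, the comparison with all arm peaks is not on a like footing. All 192 peaks other than the highest had medians of 11.81 in score and 351 bp in width, beside 13.01 and 388 bp for single peaks. Of these 192, 3 scored 100 or more, 2 of them in the 2R region from 6097836 and 1 in the 3L region from 5601602.

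**Figure D3:**
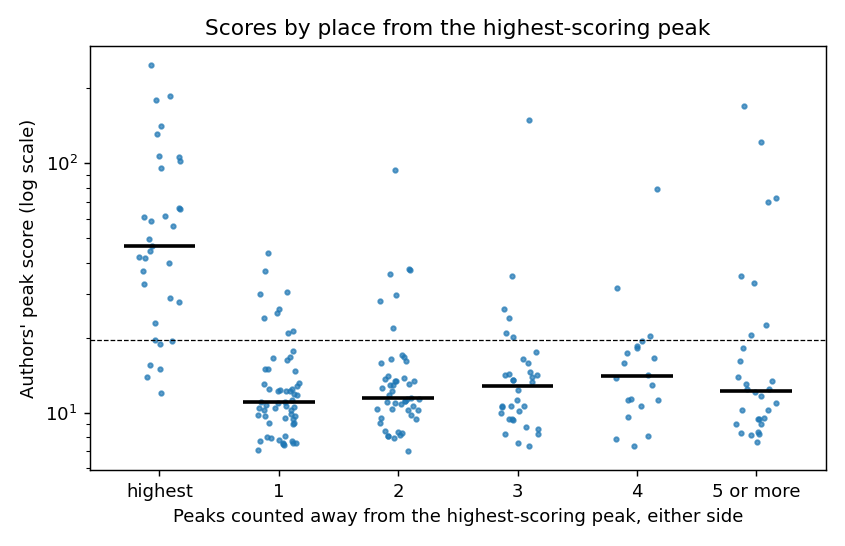
Scores by place from the highest-scoring peak. Each point is a member peak; the horizontal axis counts peaks away from the highest-scoring peak of the region on either side, the vertical axis is the authors' peak score on a log scale, thick bars are medians and the dashed line is the upper quartile of all arm peaks. The median drops from 46.47 for the highest peaks to 10.99 beside them and stays between 10.99 and 13.98 farther away.

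The highest-scoring peak was the first or last of its region in 7 of 33 regions. If every place in a region were equally likely, 31.7% of regions would have it at an end, which is a yardstick from the numbers of peaks alone; the observed 7 of 33 were not tested against it. The highest-scoring peak was also the widest of its region in 22 of 33. It made up at least 50% of the covered bases in 5 regions.

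Neighbouring peaks in dense regions were mostly separated by short gaps. The 192 gaps, measured from the end of one peak to the start of the next, had a median of 305 bp and an interquartile range of 156 to 851 bp. The shortest was 51 bp, beside a shortest gap of 50 bp anywhere in the list, and the longest was 4425 bp. Of the gaps, 120 (62.5%) were 500 bp or less, and 29 were 100 bp or less. In the 210 regions of 2 to 4 peaks, 162 of 295 gaps (54.9%) were 500 bp or less and the median was 415 bp. Gap lengths are part of what made a region dense, so this difference is given as a description.

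**Figure D4:**
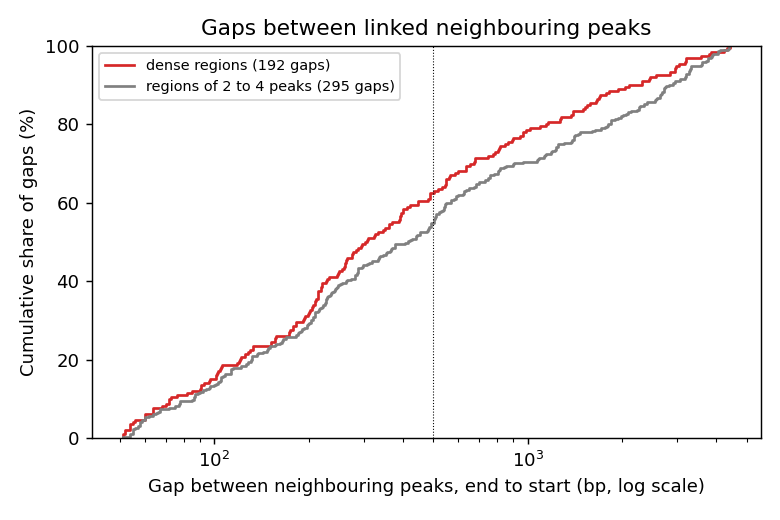
Gaps between linked neighbouring peaks. The horizontal axis is the gap in bp from the end of one peak to the start of the next on a log scale, and the vertical axis the cumulative share of gaps; the red line is the 33 dense regions and the grey line the regions of 2 to 4 peaks. At the dotted line at 500 bp the red line stands at 62.5% and the grey line at 54.9%.

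Because of these short gaps, many dense regions came down to a few blocks when nearby peaks were joined. Joining peaks 500 bp or less apart turned the 225 peaks into 105 blocks. Of the 33 regions, 3 became a single block and 7 became 2 blocks. Another 19 became 3 or 4 blocks, and 4 kept 5 or more. The 3 single blocks were the 2L region from 6082972, the 3R region from 27528168 and the X region from 3636066. The 2 regions with 6 blocks were on 3L from 10842882 and on 3R from 5698571. A small number of blocks did not mean nearly continuous peaks. The 3R region from 5168766 formed 3 blocks with peaks over 20.5% of its span, and the 2R region from 12695909 formed 4 with 22.8%. Whether a block is 1 stretch of bound chromatin divided by the peak caller or several sites cannot be told from the list, which gives no signal between the peaks.

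Member peaks of high score were wide. The median width was 406 bp for all members and 381 bp for the other arm peaks, and 45 of 225 members (20.0%, interval 15.0 to 25.8%) were 1 kb or wider, against 14.1% of all arm peaks. For scores under 10 the median widths were 246 bp in 57 members and 258.5 bp in 286 other arm peaks, and for scores of 10 to 20 they were 384 bp in 109 members and 360 bp in 603 others. At scores of 20 to 50, the 37 members had a median width of 1065 bp (interquartile range 871 to 1367 bp) and the 209 others 833 bp (612 to 1078 bp). At scores of 50 or more, the 22 members had 2613 bp (1891 to 3193 bp) and the 74 others 1712 bp (1205 to 2511 bp). Members were thus wider than the others in both upper score bands by their medians, with interquartile ranges that overlapped. Scores were not matched within a band, and the top band has no upper limit. In it, 11 of the 22 members scored 100 or more, and 20 of the 74 others. The medians therefore do not compare widths at equal score. The others include the 95 peaks of the regions left out by position, whose median widths were 1016 bp (11 peaks) and 2532.5 bp (8 peaks) in these bands, close to those of the members. The difference was not tested, since peaks of a region are not independent. Single peaks had medians of 788 bp (113 peaks) and 1664 bp (33 peaks) in these bands. Across the 225 members, Spearman's rho of score and width was 0.81, and across the other arm peaks it was 0.75.

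**Figure D5:**
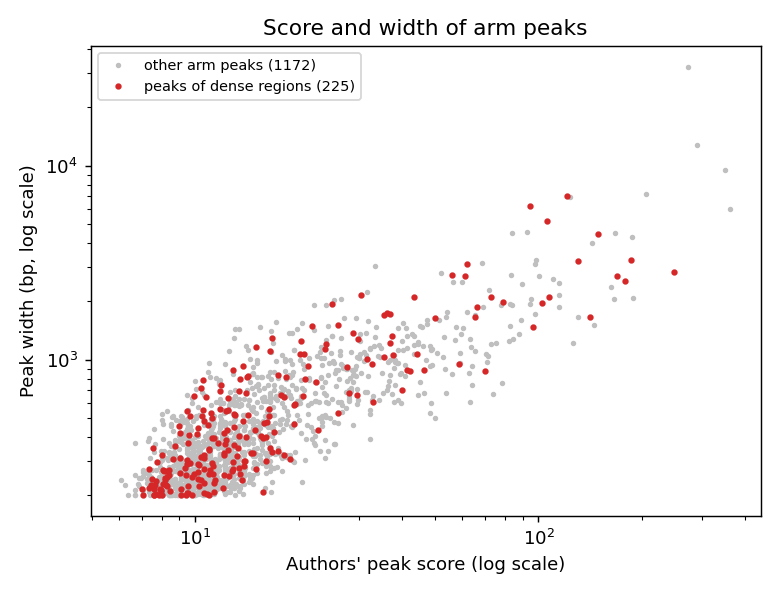
Score and width of arm peaks. The horizontal axis is the authors' peak score and the vertical axis the width in bp, both on log scales; red points are the 225 peaks of dense regions and grey points the other 1172 arm peaks. At scores of 50 or more the members had a median width of 2613 bp and the other peaks 1712 bp.

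Dense regions occurred on all arms except chromosome 4, where none was found among 4 peaks. The 2R arm had 8 regions with 58 of its 257 peaks (22.6%, interval 17.6 to 28.2%), and 4 of the 8 regions with a score of 100 or more. 2L had 4 regions with 28 of 303 peaks (9.24%, interval 6.23 to 13.1%). Of the 5 regions left out by position, 3 lie on 2L, and their peaks count in its total but not among its members. They held 7, 15 and 44 peaks, so the largest alone had more peaks than the 28 members on 2L. The low share of 2L therefore rests on leaving these regions out. On 3L and 3R the left-out regions held 21 and 8 peaks, which also count only in the totals, while no region of 2R was left out. The order of the arms by share thus depends on what was left out. On 3L there were 7 regions with 58 of 352 peaks (16.5%), on 3R 9 regions with 51 of 304 (16.8%), and on X 5 regions with 30 of 177 (16.9%). X had no dense region with a score of 100 or more, and its highest was 65.4. The median score of the members was 16.3 on X (30 peaks) and between 12.2 and 13.9 on 2L, 2R, 3L and 3R. Peaks outside dense regions also had their highest median on X, 13.36, against 11.38 to 13.12 on those 4 arms.

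Regions just inside and just outside the threshold are given side by side. The 11 regions of 5 peaks had highest scores of 12.02 to 96.08 with a median of 39.94, a median span of 6.27 kb and a median covered share of 51.3%. Among the regions of 4 peaks, leaving out 1 that overlaps a left-out stretch, there were 18, with highest scores of 12.19 to 123.4, a median of 36.7, a median span of 5.09 kb and a median covered share of 64.9%. Of these 18, 2 had a score of 100 or more, and of the 11 none. The widest distance between linked midpoints was 4987 bp, in the 2R region from 12695909, and the nearest midpoint outside a dense region was 5162 bp away, beside the 2L region from 6082972.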

How the data were processed

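ChIP and Input libraries of USP-GFP embryos (2 each) are represented by 1 peak list. Per the file headers and columns, MACS called the peaks on FlyBase release 5. The submitters' processing notes name BWA, MACS2, CASAVA (1.7.0.2 and 1.7.0.3) and the build BDGP5. Not given in the sources used here are the settings, the libraries behind the calls, any pooling, and how the score that the authors deposited for each peak was defined. The score is the authors' own, and it serves only to describe and rank peaks within this list. The other deposited values are each peak's first and last base, counted from 1.

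From these, midpoints (rounded down), widths, gaps, linked regions and covered lengths were computed with Python 3.11.15, pandas 2.3.3 and scipy 1.17.1, and figures drawn with matplotlib 3.10.9. The linking was tested on simulated data. A joined block took its highest score. The dense regions, and the ways of describing them, were chosen with earlier results of these data known. Regions described first were the 8 with the most peaks, the 8 with the highest score, the 4 most and 2 least covered, and the 2 shortest and 2 longest. With ties broken by arm and position, these were 15 regions. Depth is unknown, and no test was run. Alternatives varied the linking, the minimum number of peaks, joining and the score. Genes and sequence motifs, planned for a release 5 annotation, were not analysed here.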

Additional observations from a re-analysis of the deposited data

Results flagged for a closer look

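Groups of this kind also appeared on sequences outside the 6 major arms, which the dense regions do not include. By the same linking there were 2 such groups of 5 or more peaks, with 21 peaks in all, and no control list was at hand to set them against. One, on the unplaced sequence U from 5289960 to 5303434, held 9 peaks over 13.5 kb with a highest score of 56.39, a median of 25.7 and 45.3% of its span covered. The other was the 12 peaks of the mitochondrial genome, with a highest score of 58.76, a median of 22.0 and 38.8% of 17.7 kb covered. Both medians lie above the 12.86 of all peaks in dense regions pooled, and the difference was not tested. They fall within the medians of single dense regions, which ran from 8.755 to 43.49 with a middle value of 12.59.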

How the results depend on the processing

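Of 51 values under alternatives, 35 stayed close to the reported one and 16 moved. Here close means within 1.5 times, or within the 95% interval for the score share and the median width. Linking midpoints under 2 kb gave 17 regions with 105 peaks, 3 of them with a score of 100 or more. Linking under 20 kb gave 56 regions with 403 peaks and 22.8% of the span covered. A minimum of 4 peaks gave 51 regions. Using only peaks at or above the arm median score left 4 regions with 27 peaks. Joining peaks 500 bp or less apart first removes most links of these regions: 3 regions with 17 joined peaks remained, 1 with a score of 100 or more, with 17.6% of joined peaks at or above the upper quartile, a median width of 342 bp, 32.3% of the span covered and 2 highest peaks at an end. So few regions remain there that these shares describe 3 places only. A minimum of 6 peaks gave 22 regions with 170 peaks, and 22 is exactly the lower limit of what counts as close. Keeping the left-out stretches gave 38 regions with 320 peaks. Of 2 alternatives added after the data were seen, linking by edges gave 35 regions with 236 peaks, and the other left out the 3L region of 16 peaks. By the limits above, none of these alternatives moved any of the values computed. No paired analysis was possible because values per library are absent from the list, and leaving out a library could not be tried either. Unknown depth limits every count, as weak sites may have gone uncalled.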
